A study of Mus musculus with 9 samples.

Results

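The 9 genes described here make up the signalling system by which lymphoid tissue is built and kept together: the chemokines Cxcl13, Ccl19 and Ccl21a, their receptors Cxcr5 and Ccr7, the lymphotoxin genes Lta and Ltb with the receptor gene Ltbr, and Tnfsf13b, which encodes the B cell survival factor BAFF. They were chosen by name, with earlier results of these data known. Their counts beside the share of all features are therefore descriptions and not an independent test. Their values were read from every entry of the tumor tables that named them, 9 genes of 50387 gene features in all. Hepa1-6, a mouse hepatoma cell line, was grown as orthotopic tumors in the liver of male C57BL/6 mice that were several weeks old at purchase. The mice received either PBS or the RMP1-14 antibody against PD-1, an inhibitory receptor of T cells, by intraperitoneal injection, 5 times at intervals of 4 days. RNA of whole tumors was sequenced in 3 PBS tumors, in 3 antibody-treated tumors deemed nonresponsive because they were the largest, and in 3 deemed responsive because they were the smallest. All 9 tumors came from the same line and mouse strain. Treated tumors of intermediate size were left out, and the responsive and nonresponsive groups were thus set by tumor size after treatment. Levels are FPKM, fragments scaled to transcript length and to the number mapped in the library, and so are levels per length that can be set side by side between genes.

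In lymph nodes and spleen, CXCL13 draws B cells and follicular helper T cells, which carry the receptor CXCR5, into follicles, while CCL19 and CCL21 draw naive T cells and mature dendritic cells, which carry CCR7, into the T cell zone. Lymphotoxin made by lymphocytes, with subunits encoded by Lta and Ltb, acts on the lymphotoxin beta receptor of stromal cells, and this signal, through noncanonical NF-kB, maintains the expression of these chemokines. The same genes are active in tertiary lymphoid structures. These are aggregates of B and T cells that can form in inflamed liver and in tumors. In bulk tumor RNA, fewer cells of a type and less RNA per cell cannot be told apart.

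The promoters of the 3 chemokine genes and of Ltb are shown because these chemokine genes are known targets of lymphotoxin signalling through NF-kB and Ltb encodes its ligand. RefSeq promoter sequences (build GRCm38.p6) were found for 7 of the 9 members. Ccl19 and Ccl21a lie near each other on chromosome 4, and Lta and Ltb on chromosome 17. Each line is the 250 bases before the transcription start, 5′ to 3′ on the strand of the gene, and capitals mark matches, on either strand, to GGGNNTTTC, a core of the classical NF-kB motif, or to GGGAGATTT, a core of a motif bound by noncanonical NF-kB.
Cxcl13, chr5:95956689-95956938, plus strand: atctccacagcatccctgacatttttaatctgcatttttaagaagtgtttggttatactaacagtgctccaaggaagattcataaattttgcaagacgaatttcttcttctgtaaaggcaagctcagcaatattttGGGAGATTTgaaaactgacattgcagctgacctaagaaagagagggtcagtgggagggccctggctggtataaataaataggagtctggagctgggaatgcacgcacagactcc
Ccl19, chr4:42756366-42756615, minus strand: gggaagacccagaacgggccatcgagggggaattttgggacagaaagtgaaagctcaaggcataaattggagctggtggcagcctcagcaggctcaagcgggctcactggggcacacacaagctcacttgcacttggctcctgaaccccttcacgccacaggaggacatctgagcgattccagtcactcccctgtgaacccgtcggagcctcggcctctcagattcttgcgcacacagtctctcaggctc
Ccl21a, chr4:42773992-42774241, minus strand: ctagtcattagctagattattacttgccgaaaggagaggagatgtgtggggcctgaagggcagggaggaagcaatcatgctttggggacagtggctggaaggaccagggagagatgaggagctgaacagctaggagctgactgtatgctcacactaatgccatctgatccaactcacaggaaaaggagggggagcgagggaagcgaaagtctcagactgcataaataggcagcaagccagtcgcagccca
Ltb, chr17:35194257-35194506, plus strand: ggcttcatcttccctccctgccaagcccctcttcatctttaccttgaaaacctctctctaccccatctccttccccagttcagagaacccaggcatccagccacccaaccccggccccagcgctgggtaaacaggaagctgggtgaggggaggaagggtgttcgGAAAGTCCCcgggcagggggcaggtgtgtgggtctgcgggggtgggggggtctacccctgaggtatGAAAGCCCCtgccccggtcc
Cxcl13 held GGGAGATTT from base 114 to base 106 before the start, a string present in 0.283% of 32851 promoter stretches of this length. This promoter was picked as that of a known target, and whether the motif was first defined in it was not checked. The share is therefore no test of the match. Ltb held 2 matches to GGGNNTTTC on the opposite strand, GAAAGTCCC from base 86 to 78 and GAAAGCCCC from base 20 to 12 before the start, and 3.72% of the stretches held this motif. Neither string was found in these windows of the other members with a promoter, and the matches are descriptions of letters, not of binding.

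Among the chemokines, Cxcl13 had an FPKM of 0.456, 8.93 and 8.99 in PBS tumors 1 to 3, 8.80, 47.9 and 4.15 in nonresponsive tumors 1 to 3, and 32.2, 5.63 and 32.4 in responsive tumors 1 to 3. The highest Cxcl13 value thus belonged to nonresponsive tumor 2, and responsive tumors 1 and 3 followed. The groups overlapped. This tumor was also the only one with a high level of the pancreatic acinar cell markers, whose 6 genes summed to 881 FPKM there and to at most 0.170 FPKM elsewhere. The part of that tissue in the Cxcl13 value was not tested.

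Ccl19 had an FPKM of 4.92, 109 and 56.4 in PBS tumors, 50.6, 34.3 and 35.0 in nonresponsive tumors and 155, 81.0 and 174 in responsive tumors. All 3 responsive tumors were above all 3 nonresponsive tumors, while the PBS group held both the lowest value and one above responsive tumor 2. Cufflinks' own interval, which covers the estimate within a library and not the spread between mice, ran from 3.25 to 6.59 in PBS tumor 1 and from 156 to 191 in responsive tumor 3. Of the 50-base windows of Ccl19 transcripts 52.0% also occurred in transcripts of another gene, among them Ccl19-ps1, Gm2564 and Gm12407, so the reads could have been split between copies.

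Ccl21a, which encodes the CCL21 of lymph node stroma and high endothelial venules, had 48.3, 68.3 and 38.9 FPKM in PBS tumors, 110.3, 28.4 and 95.2 in nonresponsive tumors and 136, 75.2 and 122 in responsive tumors. The responsive tumors were all above the PBS tumors, and nonresponsive tumors 1 and 3 lay among the responsive values. Of its windows 71.6% occurred in near-identical genes, and Ccl21b, which shared entries with Ccl21d and Gm13304, ran from 4.70 FPKM in nonresponsive tumor 2 to 117 in responsive tumor 1, which were also the lowest and the highest tumor for Ccl21a, so that the split between these copies is uncertain. No 50-base window of the other members occurred in a second gene.

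For the receptors, Ccr7 had 5.45, 21.1 and 13.9 FPKM in PBS tumors, 12.5, 10.9 and 8.14 in nonresponsive tumors and 15.1, 9.64 and 19.8 in responsive tumors. The highest value was that of PBS tumor 2 and the lowest that of PBS tumor 1, so the group without antibody spanned the other groups. Cxcr5 was above 0 in only 3 of the 9 tumors, at 4.75 FPKM in PBS tumor 2, 7.65 in responsive tumor 1 and 9.33 in responsive tumor 3. It was listed at 0 in the other tumors, including all 3 nonresponsive tumors. An entry listed at 0 may be a failed estimate: Cd79a, a subunit of the B cell receptor, was listed at 0 in nonresponsive tumor 1, where its partner Cd79b had 21.7 FPKM. No fold change is given for Cxcr5 for this reason.

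Ltb, the membrane-bound lymphotoxin subunit made by lymphocytes, had 15.8, 67.7 and 47.8 FPKM in PBS tumors, 72.5, 32.2 and 33.5 in nonresponsive tumors and 84.8, 78.3 and 104 in responsive tumors. The 3 responsive tumors were above all 6 others, with nonresponsive tumor 1 closest below them. Lta, the subunit that can also be secreted alone, was much lower, at 0.135, 2.05 and 16.5 FPKM in PBS tumors, 3.37, 0 and 0.856 in nonresponsive tumors and 2.23, 1.20 and 6.48 in responsive tumors. The value of 16.5 in PBS tumor 3 and the 0 in nonresponsive tumor 2 were those of entries that joined Lta with its neighbour Nfkbil1, so that the Lta part of neither is known. Nfkbil1 had 14.8 and 19.7 FPKM in PBS tumors 1 and 2, where it had an entry of its own.

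Ltbr, the receptor that stromal and tumor cells carry, was the most even member, with 58.1, 49.99 and 57.7 FPKM in PBS tumors, 59.3, 46.7 and 55.1 in nonresponsive tumors and 52.6, 66.1 and 47.0 in responsive tumors. Its highest value was 1.42 times its lowest, against 35.3 times for Ccl19 and 105 times for Cxcl13. Tnfsf13b, the BAFF gene of myeloid and stromal cells, had 5.16, 13.3 and 7.40 FPKM in PBS tumors, 6.63, 9.41 and 9.51 in nonresponsive tumors and 10.1, 10.1 and 11.9 in responsive tumors. Its responsive values were above the nonresponsive ones by a small margin and were within the PBS range. By the median over the 9 tumors the order of levels was Ccl21a (75.2), Ltb (67.7), Ccl19 (56.4), Ltbr (55.1), Ccr7 (12.5), Tnfsf13b (9.51), Cxcl13 (8.93), Lta (2.05) and Cxcr5 (listed at 0). The ranges of the first 4 overlapped one another, as did those of Ccr7, Tnfsf13b and Cxcl13, while every Ltbr value was above every Ccr7 value.

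**Figure D1:**
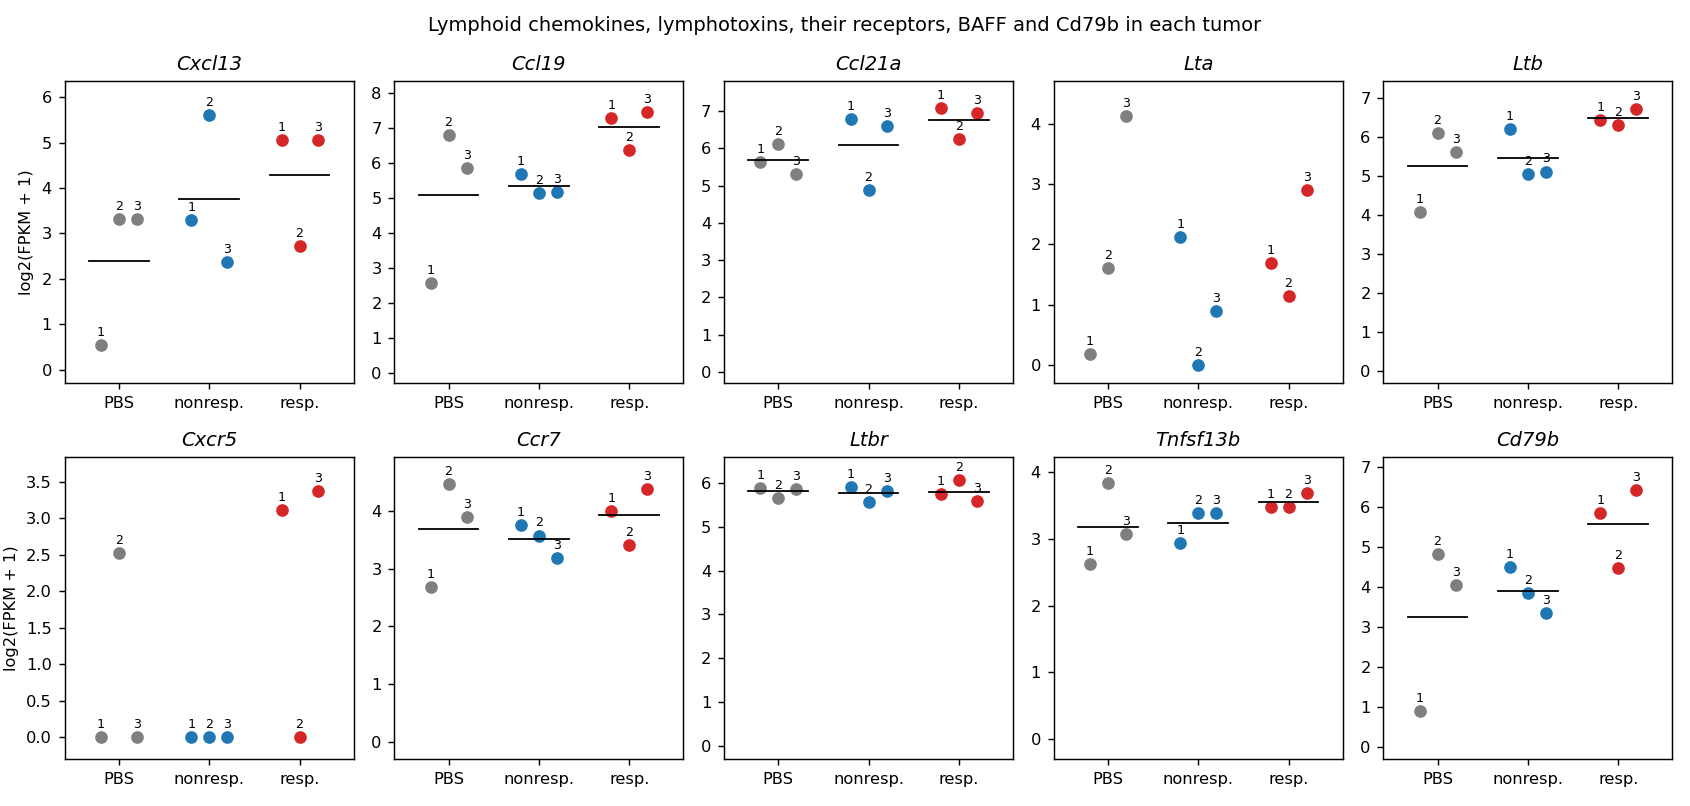
Level of each member and of Cd79b in every tumor as log2(FPKM + 1), by group, with the replicate number above each point and the group mean as a line (omitted for Lta and Cxcr5, which hold values listed at 0). Ccl19 and Ltb lie higher in all 3 responsive tumors than in the nonresponsive ones, Ltbr lies between 46.7 and 66.1 FPKM in all tumors, and PBS tumor 1 is lowest for 5 of the 9 members.

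PBS tumor 1 was the lowest tumor for 5 of the 9 members, namely Cxcl13, Ccl19, Ccr7, Ltb and Tnfsf13b, and for 23.6% of the 14466 gene features that reached an FPKM of 1 in 3 or more tumors. It was also the lowest tumor in the summed markers of B cells, T cells, dendritic cells, macrophages, lymphatic and sinusoidal endothelial cells and hepatocytes. Its sums for fibroblast and tumor line markers were not the lowest. Transcripts without a gene name took 81.5% of its summed FPKM, the largest share of any tumor. This share was 50.3 and 19.2% in PBS tumors 2 and 3. It was 72.1, 70.4 and 73.2% in nonresponsive tumors 1 to 3 and 55.1, 49.3 and 21.0% in responsive tumors 1 to 3. The 10 B cell markers summed to 6.73 FPKM in PBS tumor 1 and to 97.3 and 55.3 in PBS tumors 2 and 3. They summed to between 35.1 and 58.3 in nonresponsive tumors and between 84.5 and 284 in responsive tumors. The 11 T cell markers summed to 51.5, 182 and 92.7 in PBS tumors 1 to 3, to between 109 and 119 in nonresponsive tumors and to between 138 and 194 in responsive tumors. The sums of both lymphocyte lists were thus higher in all 3 responsive than in all 3 nonresponsive tumors. Of the single markers, 6 of 10 for B cells and 5 of 11 for T cells were so. Cd8a had its lowest value of the 9 tumors, 2.46 FPKM, in responsive tumor 1. The 12 hepatocyte markers ran from 579 to 6258 in PBS, from 4126 to 13766 in nonresponsive and from 11292 to 24346 in responsive tumors. Skeletal muscle markers summed to 211 in nonresponsive tumor 3, 77.2 in PBS tumor 1 and 75.2 in responsive tumor 2, and to between 2.31 and 16.7 in the other tumors. Of the tumor line's markers, Afp was between 0.321 and 56.5 FPKM and Gpc3 between 2.50 and 11.5.

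**Figure D2:**
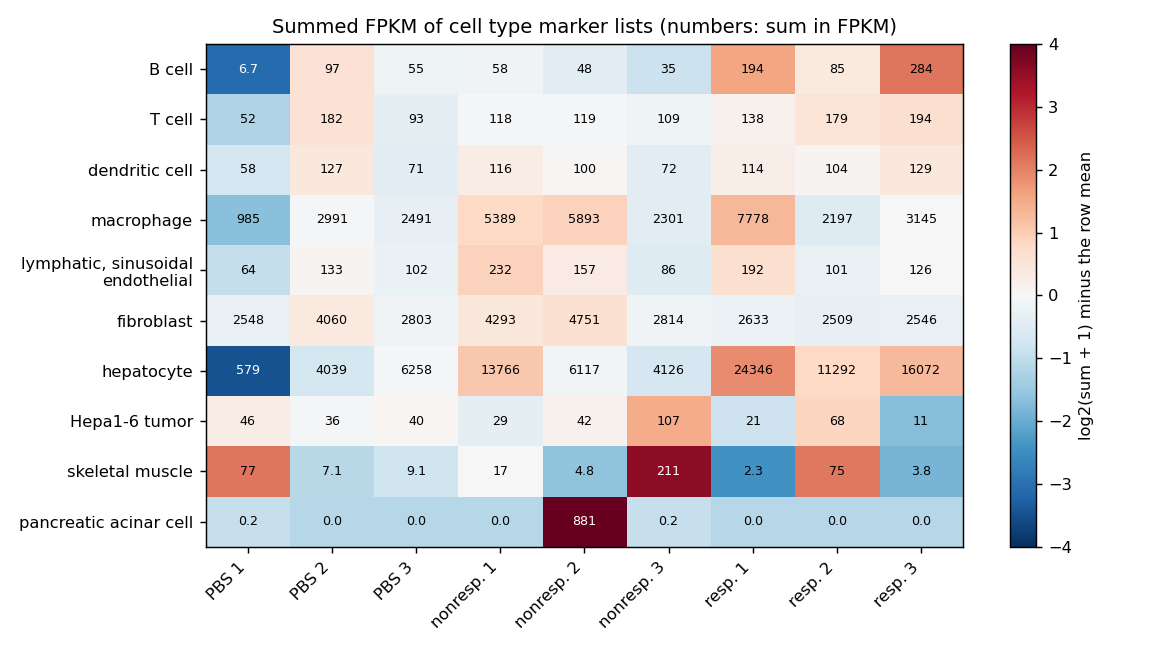
Summed FPKM of each cell type marker list in each tumor, printed in the cells, with the colour giving log2(sum + 1) minus the mean of the row. B cell markers are lowest in PBS tumor 1 (6.73) and highest in responsive tumors 1 and 3, and acinar markers are high only in nonresponsive tumor 2 (881).

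The comparison of responsive with nonresponsive tumors asks which genes differ between treated tumors that stayed small and those that grew. Ccl19 and Ltb were higher in responsive tumors, and no member was lower beyond the spread. Ccl19 averaged 136 ± 48.9 FPKM (SD, n = 3) against 39.9 ± 9.22, a difference of 1.70 on the log2(FPKM + 1) scale (standard error 0.354, limma unadjusted p = 0.00318, adjusted p = 0.792). Ltb averaged 89.1 ± 13.5 FPKM against 46.1 ± 22.9, a difference of 1.03 (standard error 0.360, limma unadjusted p = 0.0294, adjusted p = 0.885). The exact two-sided permutation test gave p = 0.1 for both, the smallest that 3 against 3 allows. Adjusted over all 13837 features tested, no member passed 0.05, where 0.116% of all features did.

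Thus 2 of the 8 members tested had an unadjusted p under 0.05 with a higher level in responsive tumors, as did 4.05% of all features. In 3 of the 8, Ccl19, Ltb and Tnfsf13b, every responsive tumor was above every nonresponsive one, as in 5.78% of all features. The median difference of the 8 was 0.60, against −0.07 for all features tested. Tnfsf13b differed by 0.31 (limma unadjusted p = 0.190), Ccl21a by 0.67 (unadjusted p = 0.282), Ccr7 by 0.43 (unadjusted p = 0.220), Lta by 0.90 (unadjusted p = 0.237) and Cxcl13 by 0.53 (unadjusted p = 0.628). Ltbr differed by 0.03 with a standard error of 0.214 (limma unadjusted p = 0.881). Without nonresponsive tumor 2, the differences of Ccl21a and Lta were 0.068 and 0.40, and without responsive tumor 3 that of Lta was 0.41. Cxcr5 did not reach the level required for the test in these 6 tumors.

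Beside these differences, 7 of the 10 B cell, 4 of the 11 T cell and 5 of the 12 hepatocyte markers had an unadjusted p under 0.05 and were higher in responsive tumors. The part of lymphocyte content in Ccl19 and Ltb was not tested. In a fit of all 9 tumors, in which the PBS tumors share in the estimate of the spread, Ccl19 had an unadjusted p of 0.118 and Ltb of 0.0921 by limma. With the mean of the hepatocyte markers as a covariate in this fit their differences were by limma 0.33 (unadjusted p = 0.589) and 0.29 (unadjusted p = 0.425). The Ltb call was also lost on leaving out nonresponsive tumor 2 (0.83, limma unadjusted p = 0.0948), nonresponsive tumor 3 (0.86, unadjusted p = 0.0871), responsive tumor 1 (1.06, unadjusted p = 0.0616) or responsive tumor 3 (0.91, unadjusted p = 0.0903). Ccl19 kept its call in all 6 such fits, with differences between 1.49 and 2.03. Summed with Gm12407, Gm2564, Ccl19-ps1 and the symbols in their entries, Ccl19 differed by 1.52 and its groups still did not overlap. Ccl19-ps3, which also shares windows with Ccl19, was not in this sum.

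Responsive tumors were also compared with PBS tumors. Here Ccl21a was higher, at 111 ± 31.6 FPKM (SD, n = 3) against 51.8 ± 15.0, a difference of 1.08 on the log2(FPKM + 1) scale (standard error 0.322, limma unadjusted p = 0.0169, adjusted p = 0.281; exact permutation p = 0.1). It was the only member of the 9 tested with an unadjusted p under 0.05, as were 8.47% of all features in the higher direction. No member passed after adjustment, where 0.231% of all features did. Ltb did not overlap either, at 89.1 ± 13.5 against 43.7 ± 26.2 FPKM, a difference of 1.22 (limma unadjusted p = 0.0665). That makes 2 of 9 members without overlap, against 11.6% of all features.

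The differences of Ccl19 (1.97, limma unadjusted p = 0.132) and Cxcl13 (1.89, unadjusted p = 0.116) from PBS had standard errors of 1.12 and 1.02, with PBS tumor 1 at the lowest value of each. Without PBS tumor 1 they were 0.72 and 0.97. Ccr7 (0.25, limma unadjusted p = 0.650), Tnfsf13b (0.37, unadjusted p = 0.307), Ltbr (−0.01, unadjusted p = 0.955) and Lta (−0.06, unadjusted p = 0.956) were closer to PBS. The Lta values include the joined entry. Of the markers, 4 of 10 for B cells, 0 of 11 for T cells and 10 of 12 for hepatocytes were higher than in PBS tumors at an unadjusted p under 0.05. The median of the 9 members was 1.08 and that of all features −0.11. The Ccl21a call was lost in the fit of all 9 tumors (limma unadjusted p = 0.0725), with the hepatocyte covariate (0.81, unadjusted p = 0.368), and without PBS tumor 3 (0.89, unadjusted p = 0.0578), responsive tumor 1 (0.91, unadjusted p = 0.0521) or responsive tumor 3 (0.99, unadjusted p = 0.0561). Summed with its near-identical copies other than Gm21541, Ccl21a differed by 1.06 and still did not overlap. In contrast, 4 members, Ccl19, Ccl21a, Ltb and Tnfsf13b, passed without PBS tumor 2, and 3, Cxcl13, Cxcr5 and Ccl21a, without responsive tumor 2. Over all features, 1259 of 13478 passed as higher without PBS tumor 2, against 1173 of 13844 with no tumor left out. Without responsive tumor 2 it was 1188 of 13537, and the features that passed as lower went from 1212 to 2683. The Cxcr5 call rests on tumors listed at 0.

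Nonresponsive tumors, which received the same antibody, were compared with PBS tumors as well. None of the 8 members tested had an unadjusted p under 0.05 by limma in either direction, as did 1.51% of all features in the higher and 1.71% in the lower direction. No member passed after adjustment (0.0797% of all features), and in none was every nonresponsive tumor above the PBS tumors (3.23% of all features). Ltb averaged 46.1 ± 22.9 against 43.7 ± 26.2 FPKM (difference 0.19, limma unadjusted p = 0.763), Tnfsf13b 8.52 ± 1.64 against 8.61 ± 4.18 (0.06, unadjusted p = 0.874) and Ltbr 53.7 ± 6.40 against 55.3 ± 4.57 (−0.04, unadjusted p = 0.812). Ccl19 differed by 0.27 (limma unadjusted p = 0.812), Ccl21a by 0.40 (unadjusted p = 0.500), Ccr7 by −0.18 (unadjusted p = 0.723) and Cxcl13 by 1.36 with a standard error of 1.12 (unadjusted p = 0.271). Lta, with its joined entries, differed by −0.97 (limma unadjusted p = 0.415), and with the hepatocyte covariate by −2.21 (unadjusted p = 0.0413). The sign of the Ccl19 difference rested on PBS tumor 1, without which it was −0.98 (limma unadjusted p = 0.0484), and without nonresponsive tumor 2 that of Ccl21a was 1.01 (unadjusted p = 0.0247). The 3 comparisons share groups of tumors, so their results are not independent of one another.

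**Figure D3:**
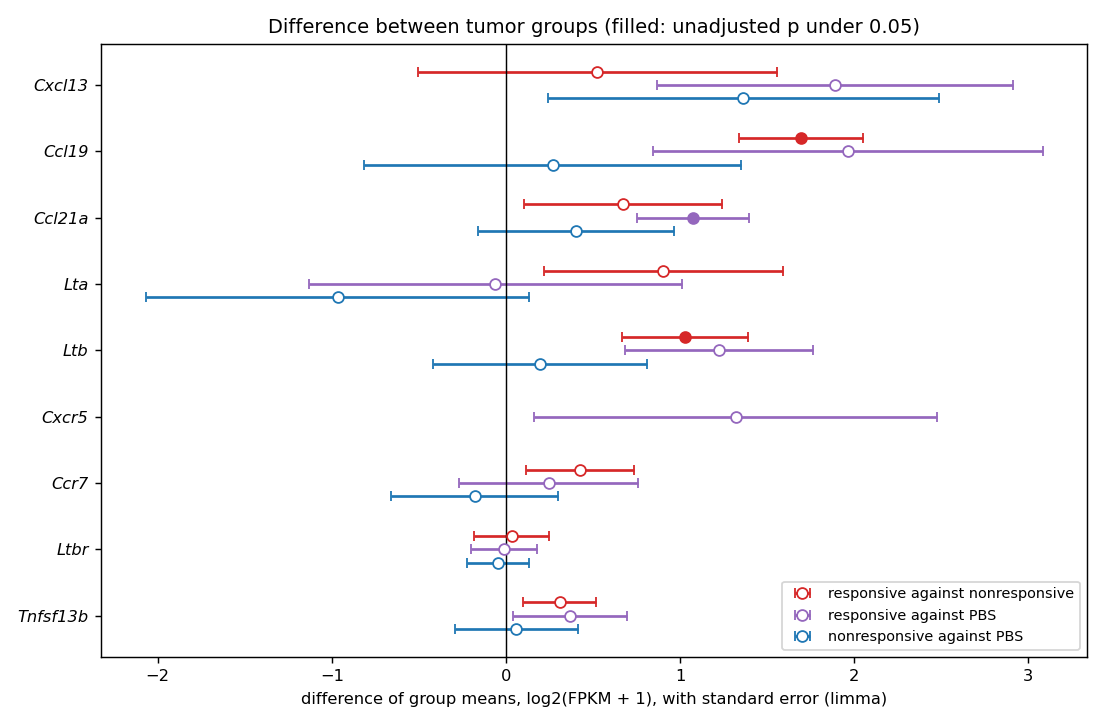
Difference of group means on the log2(FPKM + 1) scale for each member in the 3 comparisons, with the standard error from limma, and with filled points where the unadjusted p is under 0.05. Ccl19 and Ltb are filled for responsive against nonresponsive tumors and Ccl21a for responsive against PBS tumors, Ltbr lies near 0 in all 3, and Cxcr5 was tested in the comparison of responsive with PBS tumors alone.

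The members were related to Cd79b, which encodes a subunit of the B cell receptor and so follows B cells. Cd79b had 0.869, 27.7 and 15.5 FPKM in PBS tumors, 21.7, 13.6 and 9.26 in nonresponsive tumors and 57.3, 21.2 and 85.3 in responsive tumors. Across the 9 tumors Ccl19 followed it most closely, with Pearson's r = 0.978 (exact permutation p = 2.76e-05, adjusted over 14465 symbols p = 0.0208) and Spearman's rho = 0.933 (exact p = 0.00075, adjusted p = 0.0781). For Ltb r was 0.944 (exact permutation p = 3.86e-05, adjusted p = 0.0223) and rho 0.917 (exact p = 0.00131, adjusted p = 0.0781), and for Ccr7 r was 0.869 (exact permutation p = 0.00231, adjusted p = 0.0434) and rho 0.867 (exact p = 0.00451, adjusted p = 0.0846). These 3 members passed the adjusted threshold in Pearson's r, as did 7.79% of all symbols, and none of the 9 did so in Spearman's rho.

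Cxcl13 (r = 0.785, exact permutation p = 0.0128, adjusted p = 0.0814; rho = 0.55, exact p = 0.133), Tnfsf13b (r = 0.744, p = 0.0221, adjusted p = 0.102; rho = 0.667, p = 0.0589) and Cxcr5 (r = 0.721, p = 0.0159, adjusted p = 0.0889; rho = 0.842, p = 0.00397) were past 0.05 in r before adjustment alone. That makes 6 of 9 members with a positive r at an unadjusted p under 0.05, against 16.6% of all symbols, among which the median r was −0.14. Ccl21a (r = 0.560, exact permutation p = 0.113; rho = 0.667, p = 0.0589), Lta (r = 0.515, p = 0.156; rho = 0.65, p = 0.0666) and Ltbr (r = −0.37, p = 0.331; rho = −0.28, p = 0.463) did not pass. When the libraries were scaled to entries that name genes, Ltbr passed with a negative r (−0.72, exact permutation p = 0.0301) and Tnfsf13b did not (0.624, exact p = 0.0694). Of all symbols 0.0622% had an r at least as high as that of Ccl19, 0.518% as that of Ltb and 4.93% as that of Ccr7.

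PBS tumor 1 and responsive tumor 3 lay farthest from the median of Cd79b. Without both, r was 0.924 for Ccl19, 0.839 for Ltb, 0.834 for Cxcr5, 0.638 for Ccr7, 0.511 for Ccl21a, 0.382 for Cxcl13, 0.278 for Tnfsf13b, 0.138 for Lta and −0.03 for Ltbr. The relations of Cxcl13, Ccr7 and Tnfsf13b thus no longer passed (exact permutation p = 0.392, 0.118 and 0.549), and those of Ccl19, Ltb and Cxcr5 did. No share of all symbols is given for this setting or the next, so these members are not set against one. With the group means removed, so that the difference between the groups does not enter, r was 0.971 for Ccl19, 0.906 for Ltb and 0.990 for Ccr7 (permutations within groups, exact p = 0.00926, 0.00926 and 0.00463, the last the smallest these can give), and the other members did not pass. The 3 tumors in which Cxcr5 was above 0, PBS tumor 2 and responsive tumors 1 and 3, were those with the highest Cd79b, and its correlation rests on values listed at 0 in the other 6.

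**Figure D4:**
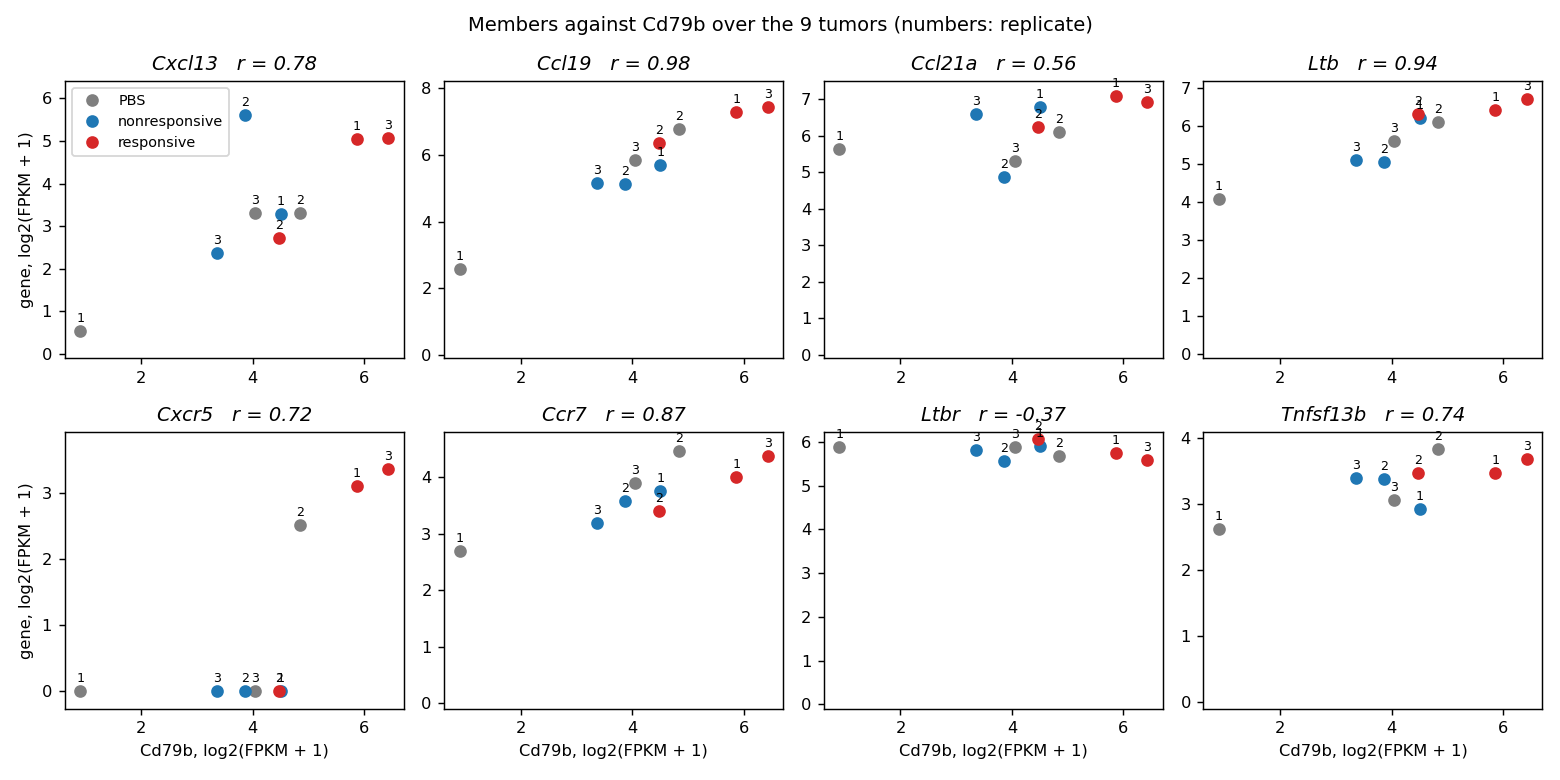
Level of 8 members against that of Cd79b in the 9 tumors, both as log2(FPKM + 1), coloured by group with the replicate number above each point and Pearson's r in the title. Ccl19 (r = 0.978) and Ltb (r = 0.944) run along with Cd79b in all groups, Cxcl13 in nonresponsive tumor 2 stands above the others at its level of Cd79b, and Ltbr has r = −0.37.

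Of the 36 pairs of members, given with unadjusted p-values, the closest was Ccl19 and Ltb (r = 0.945, exact permutation p = 0.00016), then Ccl19 and its receptor gene Ccr7 (r = 0.872, exact p = 0.00197). The other chemokine and receptor pairs were looser, with r = 0.512 for Cxcl13 and Cxcr5 (exact permutation p = 0.192) and r = 0.316 for Ccl21a and Ccr7 (exact p = 0.405). The chemokines Cxcl13 and Ccl21a, which belong to the B and T cell zones, had r = 0.106 (exact permutation p = 0.785). The most negative pair was Cxcl13 with Ltbr (r = −0.67, exact permutation p = 0.0488). All pairs share the same 9 libraries, including the low PBS tumor 1.

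By the Pearson correlation over the 9 tumors on the log2(FPKM + 1) scale, given as a description, the 3 symbols most like Ccl19 were Gm21104 (0.994), Cd79b (0.978) and Gm12407 (0.972), of which Gm12407 shares windows with Ccl19 and Gm21104 shares an entry with Gm12407. Those most like Ltb were Pdzk1ip1 (0.977), Gstm1 (0.974) and Cdh1 (0.968), and those most like Cxcl13 were Daam1 (0.975), Ttc30b (0.969) and Cd55 (0.961). Ccl21a was most like its copies Ccl21b (0.956) and Ccl21d (0.956) and then Mmab (0.955), and Ccr7 most like the chemokine gene Ccl4 (0.965), Igkv3-2 (0.958) and Tcim (0.954). Tnfsf13b was closest to the T cell costimulatory receptor gene Cd28 (0.951), Enpp4 (0.944) and the adhesion molecule gene Vcam1 (0.920). Ltbr was closest to Eif1 (0.953), Mrps18a (0.944) and Coprs (0.935), Lta to Perm1 (0.918), Ighv1-4 (0.895) and Ifi27l2b (0.889), and Cxcr5 to Oosp2 (0.996), Umod (0.944) and Dennd5b (0.941). Cxcr5 was listed at 0 in 6 tumors, and the lowest values of Oosp2, Umod and Perm1 were also 0. The correlations of Lta include its joined entries.

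Genes that work beside the members were taken from 5 lists with 50 genes. In the comparison within treated tumors 45 of them were tested, and 5 were higher in responsive tumors at an unadjusted p under 0.05, against 4.05% of all features. None was lower, none passed after adjustment (limma, smallest adjusted p = 0.885), and the median difference was −0.04. They were 2 of 11 other chemokine and receptor genes (Ccl20 and Ccr6), 1 of 4 genes of the BAFF and APRIL family (Tnfrsf13c) and 2 of 13 genes of lymphoid stroma, venules and follicles (Fcer2a and Pdcd1). The chemokine Ccl20 had 2.52, 0.605 and 1.41 FPKM in nonresponsive and 7.37, 4.09 and 6.48 in responsive tumors (difference 1.52, standard error 0.365, limma unadjusted p = 0.0062), and its groups did not overlap. Its receptor Ccr6, present on B cells among others, had 3.25, 2.02 and 1.46 against 8.28, 3.11 and 7.83 FPKM (1.14, limma unadjusted p = 0.0306), with overlap.

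Tnfrsf13c, the BAFF receptor that is the partner of Tnfsf13b on B cells, had 3.08, 1.91 and 1.65 FPKM in nonresponsive and 14.3, 4.38 and 16.9 in responsive tumors (1.85, limma unadjusted p = 0.0106). Fcer2a, the low-affinity IgE receptor of B cells and follicular dendritic cells, had 2.17, 1.30 and 1.35 against 9.09, 4.23 and 13.4 FPKM (1.83, limma unadjusted p = 0.00443). Pdcd1, which encodes the target of the antibody and is high on follicular helper T cells, had 4.97, 4.95 and 3.75 against 8.18, 7.39 and 7.23 FPKM (0.64, limma unadjusted p = 0.0158). In all of these last 3 the groups did not overlap, and in PBS tumors Tnfrsf13c ran from 0.121 to 6.62, Fcer2a from 0.121 to 2.41 and Pdcd1 from 1.44 to 8.65 FPKM.

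Against PBS tumors, 3 of 42 genes were higher in responsive tumors at an unadjusted p under 0.05, a share below the 8.47% of all features. They were Ccl20 (1.59, limma unadjusted p = 0.00911), Ccr6 (1.33, unadjusted p = 0.0403) and Fcer2a (2.1, unadjusted p = 0.0104), and Ccl17 was lower (−1.48, unadjusted p = 0.0296), a chemokine for CCR4-bearing T cells. Ccl17 had 34.8, 10.9 and 25.8 FPKM in PBS and 4.34, 11.4 and 6.88 in responsive tumors. The median of the 42 was 0.27. In nonresponsive against PBS tumors 1 of 42 was higher (1.51% of all features), Tnfrsf11a (0.65, limma unadjusted p = 0.0499), which encodes the receptor RANK, and 1 was lower (1.71% of all features), Ccl22 (−0.61, unadjusted p = 0.0315), another ligand of CCR4, and the median was 0.27. No gene of these lists passed after adjustment in any comparison.

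**Figure D5:**
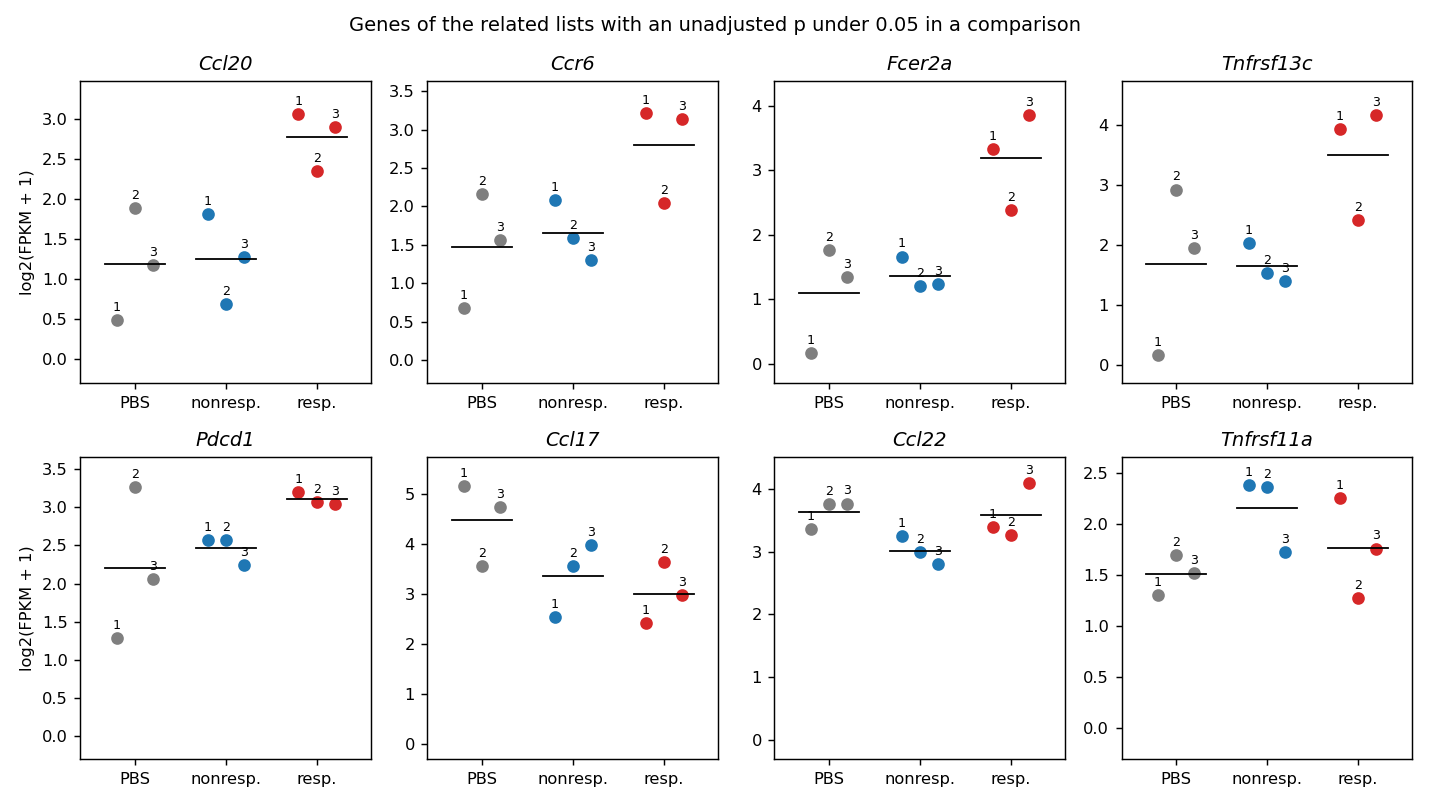
Level in each tumor, as log2(FPKM + 1), of the 8 genes of the related lists with an unadjusted limma p under 0.05 in at least 1 comparison, by group, with replicate numbers and the group mean as a line. Ccl20, Fcer2a, Tnfrsf13c and Pdcd1 are higher in every responsive than in every nonresponsive tumor, and Ccl17 is highest in PBS tumors 1 and 3.

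Of the lymphotoxin and TNF list none of the 9 genes tested reached 0.05 in the comparison within treated tumors, and its highest genes, the TNF receptors Tnfrsf1a (72.9 to 129.5 FPKM) and Tnfrsf1b (20.9 to 178), differed by −0.16 (limma unadjusted p = 0.472) and −0.18 (unadjusted p = 0.796). None of the 8 noncanonical NF-kB genes passed in any comparison, with Nfkb2 between 51.9 and 105 FPKM and Relb between 33.9 and 59.1, both in entries shared with a neighbour in some tumors (Gbf1 and Clasrp). Between responsive and nonresponsive tumors Nfkb2 differed by −0.17 (limma unadjusted p = 0.626) and Relb by −0.21 (unadjusted p = 0.413). The chemokine Cxcl12, made by stromal cells, ran from 15.0 to 480 FPKM and differed by −0.21 (limma unadjusted p = 0.796). Of the stromal genes Vcam1 ran from 31.6 to 77.4 and Icam1 from 54.5 to 98.0 FPKM, with differences of 0.20 (limma unadjusted p = 0.343) and 0.00086 (unadjusted p = 0.997). At least some of the Icam1 entries also named Icam4. Tnfrsf13b, the receptor TACI for BAFF and APRIL, ran from 5.21 to 15.4 FPKM and differed by 0.33 (limma unadjusted p = 0.430). The gene of APRIL itself, Tnfsf13, was read only through entries that also named Tnfsf12, from 0 to 458 FPKM, and is not described further.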

How the data were processed

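RNA of 9 whole tumors, 3 mice per group, was sequenced. The submitters' processing notes name TopHat2 2.1.1, Bowtie2 2.2.4 and the build mm8, and the deposited values are FPKM by Cufflinks for each tumor. Entry positions differ from GRCm38 for most members, so none is given. The authors' table of group comparisons (fold changes, p and q-values) was not used. Without counts the depth is unknown. Transcripts without a gene name took 19.2 to 81.5% of summed FPKM.

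FPKM was summed over entries naming a symbol. limma 3.58.1 (R 4.3.3) was run on log2(FPKM + 1) for the 6 tumors of a comparison, over features with FPKM of at least 1 in at least 3, with Benjamini-Hochberg adjustment; fold changes of low genes are understated. Exact tests enumerated all permutations (362880 for 9 tumors). Shared windows were counted in GENCODE transcripts. Code was tested on simulated data. Members and lists were chosen with earlier results of these data known. Named were the members, Cd79b, the 2 highest genes of each related list, its genes with an unadjusted p under 0.05, and the 3 symbols most correlated with each member. Alternatives covered pseudocount (0.1), filter (none, 5), scaling, joined loci, all 9 tumors, a hepatocyte covariate, a replicate block and leaving out tumors. Summing copies of Ccl19 and Ccl21a was chosen after seeing the data.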

Additional observations from a re-analysis of the deposited data

How the results depend on the processing

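The number of members with an unadjusted p under 0.05 was 2 for responsive against nonresponsive tumors and fell to 0 in the fit of all 9 tumors and with the hepatocyte covariate, and it was between 1 and 2 without single tumors. For responsive against PBS tumors it was 1, then 0 in the fit of all 9 tumors, with the hepatocyte covariate and with the replicate block, and between 0 and 4 without single tumors. For nonresponsive against PBS tumors it was 0, then 2 with the hepatocyte covariate (Ccr7 and Lta, both lower), and between 0 and 1 without single tumors. With this covariate 179 of 13798 features were lower there at this threshold, and the Lta value includes its joined entries. In responsive against nonresponsive tumors, 444 of 13837 features passed as higher in the fit of all 9 tumors and 405 with the covariate. Against PBS tumors, 1217 and 174 of 13844 did. Without single tumors, features passing as higher ran from 208 to 969 and from 553 to 1259 in these comparisons. The other alternatives, the pseudocount, both filters, both scalings and joined loci, left the member counts within 1.5 times. With joined loci, the locus that sums Lta with Nfkbil1 was added in responsive against nonresponsive tumors (2.66, limma unadjusted p = 0.0462). Nfkbil1 was listed at 0 in nonresponsive tumors 2 and 3 and had 15.15 FPKM in nonresponsive tumor 1. It had 12.3, 24.3 and 14.8 FPKM in responsive tumors 1 to 3, so the value of this locus is not one of Lta alone. The number of members related to Cd79b was 6, then 3 with the group means removed, 3 with the replicate block and 3 without the 2 tumors farthest from its median, and between 4 and 7 without single tumors, where Lta was added without PBS tumor 3. The share of all symbols that passed is not given for these alternatives. The replicate numbers did not pair the tumors: deviations of same-numbered tumors correlated between −0.39 and 0.48, and not every tumor correlated best with its own number. The replicate block ended the call of Ccl21a against PBS tumors (1.08, limma unadjusted p = 0.0603) and changed no other call of the group comparisons, and over all features gave 937, 947 and 237 calls in place of 760, 2385 and 445. The cause of these changes was not tested.

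With the hepatocyte covariate the sign turned, for responsive against nonresponsive tumors, for Cxcl13 (−0.73), Ccr7 (−0.18) and Lta (−0.28); against PBS for Cxcl13 (−0.67), Ccl19 (−0.82), Ccr7 (−0.99), Ltb (−0.28) and Ltbr (0.075); and for nonresponsive against PBS tumors for Ccl19 (−1.15), Ltb (−0.58) and Tnfsf13b (−0.12). None of these members was called before. Lta against PBS turned to 0.42 with a pseudocount of 0.1, and the joined locus of Lta and Nfkbil1 gave 0.18. Ltbr turned to −0.17 (responsive against nonresponsive) and 0.0036 (nonresponsive against PBS) when scaled to entries that name genes, and to 0.034 against PBS with upper-quartile scaling. Scaling to named entries moved the median of all features from −0.07 to −0.24 and from −0.11 to −0.24 in the comparisons of responsive with nonresponsive and PBS tumors. Without single tumors the sign turned for Cxcl13 (−0.17 to 1.45) and Ltbr (−0.10 to 0.14) in responsive against nonresponsive tumors, for Ccr7 (−0.25 to 0.64), Lta (−0.96 to 1.02) and Ltbr (−0.15 to 0.10) in responsive against PBS tumors, and for Ccl19 (−0.98 to 1.13), Ccr7 (−0.68 to 0.21), Ltb (−0.40 to 0.62), Ltbr (−0.12 to 0.051) and Tnfsf13b (−0.22 to 0.39) in nonresponsive against PBS tumors. Depth is unknown, so low values such as those of Lta and Cxcr5 carry an error that cannot be given.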
